A study of Homo sapiens with 9 samples.

Results

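The 42 interferon-stimulated genes described here are a fixed list of symbols, looked up by name in a count table of 26475 gene rows. All 42 had a row and all 42 passed the filter on low counts, among 14135 genes tested. The RNA came from MDA-MB-231 cells, an established human line of triple-negative breast cancer, in 9 libraries that form 3 groups of 3. Control cells were stably transduced with the empty lentiviral vector pLKO.1, and knockdown cells with pLKO.1-shACSL4, the same vector carrying a short hairpin RNA against ACSL4. The third group was the empty-vector control cells given PRGL493, which the design text calls an inhibitor of ACSL4, an enzyme that couples long polyunsaturated fatty acids to coenzyme A. Its dose, duration and solvent are not stated in the labels, so the control cells are not known to have received the solvent. All groups therefore share the pLKO.1 vector backbone, and the knockdown rests on 1 vector construct. The 3 libraries of a group are described as different batches of those cells. The p-values therefore set the difference between groups against the spread between such batches, and say nothing of other transductions or hairpins. None of the groups was labelled as having been given interferon, or a virus other than the lentiviral vector that all of them carry. The values therefore describe expression without added interferon in transduced cells. No group was free of the vector, so its part in these levels was not tested.

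Interferons are secreted proteins that warn neighbouring cells of infection. Type I and type III interferons signal through the kinases JAK1 and TYK2 to a complex that holds STAT2 and IRF9 and binds the interferon-stimulated response element (ISRE) in target promoters, while the interferon gamma pathway acts at the gamma-activated site (GAS). The genes switched on in this way encode sensors of foreign RNA, enzymes and membrane proteins that block viral replication, the ubiquitin-like protein ISG15 with its ligases, and the machinery that loads peptides on MHC class I. In tumour cells many of them are also expressed at a constant low level without added interferon.

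The promoters of 6 members that the results below turn on are printed to show the elements through which this family is known to be controlled. Each sequence is the 250 bases before the RefSeq start site on GRCh38.p14, read 5′ to 3′ on the strand of the gene. Capitals mark every match, on either strand, to GAAANNGAAA, the core of the ISRE, except in IRF1, where they mark the match to TTCNNNGAA, the core of the GAS. The windows are chr1:1013247-1013496 (plus strand) for ISG15, chr10:89392373-89392622 (plus) for IFIT1, chr5:132490774-132491023 (minus) for IRF1, chr15:44711267-44711516 (plus) for B2M, chr6:32853705-32853954 (minus) for TAP1 and chr1:89065209-89065458 (minus) for GBP1.
ISG15: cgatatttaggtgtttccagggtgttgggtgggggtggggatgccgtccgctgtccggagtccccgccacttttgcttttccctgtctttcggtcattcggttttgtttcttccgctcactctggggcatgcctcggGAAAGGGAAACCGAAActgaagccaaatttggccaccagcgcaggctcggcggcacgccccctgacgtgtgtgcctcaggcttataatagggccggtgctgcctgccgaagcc
IFIT1: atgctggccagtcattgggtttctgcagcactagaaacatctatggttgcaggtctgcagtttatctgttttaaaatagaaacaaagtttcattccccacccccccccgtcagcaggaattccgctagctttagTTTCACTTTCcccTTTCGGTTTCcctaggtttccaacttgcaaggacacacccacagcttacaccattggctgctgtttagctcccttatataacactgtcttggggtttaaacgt
IRF1: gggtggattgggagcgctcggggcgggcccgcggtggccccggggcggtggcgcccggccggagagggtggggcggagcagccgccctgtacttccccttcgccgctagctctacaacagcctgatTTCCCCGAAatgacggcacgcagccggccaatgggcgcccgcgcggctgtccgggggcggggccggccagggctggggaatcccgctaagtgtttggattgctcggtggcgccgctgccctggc
B2M: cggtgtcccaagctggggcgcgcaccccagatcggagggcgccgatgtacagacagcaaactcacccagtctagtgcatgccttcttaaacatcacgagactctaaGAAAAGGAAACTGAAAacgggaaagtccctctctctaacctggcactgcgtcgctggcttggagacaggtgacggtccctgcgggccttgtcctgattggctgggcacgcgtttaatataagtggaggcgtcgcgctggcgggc
TAP1: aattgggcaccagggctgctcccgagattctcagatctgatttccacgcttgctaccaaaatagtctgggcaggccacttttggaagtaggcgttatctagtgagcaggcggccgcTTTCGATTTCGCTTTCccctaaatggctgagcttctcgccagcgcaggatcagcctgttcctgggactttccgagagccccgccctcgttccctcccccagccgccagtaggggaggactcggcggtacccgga
GBP1: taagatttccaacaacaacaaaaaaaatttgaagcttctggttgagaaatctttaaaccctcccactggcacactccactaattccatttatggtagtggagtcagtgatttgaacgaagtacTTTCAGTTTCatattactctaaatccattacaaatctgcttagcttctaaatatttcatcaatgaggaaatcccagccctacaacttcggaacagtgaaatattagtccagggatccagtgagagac

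The RefSeq table held a promoter for 32 of the 42 members, DDX58 being matched under its current symbol RIGI. It held none for IRF7, DHX58, IFIT2, OAS2, OASL, MX2, IFITM2, GBP2, USP18 and TRIM22. Over windows of 250 bases before to 50 after the start, GAAANNGAAA or its reverse complement was found in 21 of the 32 member promoters (65.6%), against 1255 of 35116 promoters in the table (3.57%). TTCNNNGAA, which reads the same on both strands, was found in 8 of 32 (25%), against 2689 of 35116 (7.66%). The ISRE-type letters stood in 6 of the 10 promoters of members that fell in the knockdown, in 2 of 2 of those that rose and in 13 of the 20 of members not called there. With PRGL493 they stood in 4 of 6 promoters of members that fell, in 4 of 6 of those that rose and in 13 of 20 of those not called. In the same order, the GAS-type letters stood in 2 of 10, 2 of 2 and 4 of 20 for the knockdown. For PRGL493 they stood in 1 of 6, 1 of 6 and 6 of 20. A match describes letters in a window and is not a measured binding site.

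Library totals ran from 28673940 to 43027217 counts. ACSL4 itself stood at 349 ± 14.8 CPM (counts scaled to a common library size with TMM factors, mean ± SD, n = 3) in control, at 27.0 ± 2.95 in the knockdown and at 348 ± 13.7 with PRGL493. Its log2 fold change was -3.69 in the knockdown (SE 0.07, adjusted p = 6e-16) and -0.01 with PRGL493 (adjusted p = 0.95). Checked against the labelled line, the mesenchymal and basal markers VIM, CD44 and AXL ran from 1191 (AXL) to 1810.3 (VIM) CPM over all libraries, and ESR1, PGR and FOXA1 stood at or below 0.155 CPM. Of the other genes listed as absent from lines of this kind, ERBB2 stood between 68.0 and 104 CPM and GATA3 between 10.9 and 15.2, and GATA3 rose in the knockdown (0.35, adjusted p = 0.0029) and with PRGL493 (0.37, adjusted p = 0.0012). Of the leukocyte markers, PTPRC was at 0 in the control libraries and at most at 0.079 CPM elsewhere, and MS4A1 was at 0 in all 9. The summed leukocyte list ran from 148 to 164 CPM in control, 174 to 189 in the knockdown and 111 to 123 with PRGL493, nearly all of it CD68 and CD14. Of its 8 genes 3 were tested. In the knockdown 2 rose, where 14.7% of all genes did, and with PRGL493 2 fell, where 20.4% did. The summed endothelial markers (2 of 4 tested) ran from 11.2 to 12.3, 8.23 to 9.92 and 7.37 to 8.88 CPM in the same order, mostly KDR, with PECAM1 the next highest. The summed fibroblast markers (2 of 4 tested) ran from 25.3 to 27.5, 22.0 to 22.4 and 16.4 to 17.8 CPM, nearly all PDGFRB. Their part in the results was not tested. Libraries of a group differed by 3.95 to 32.49 times the sampling variance (chi-square per degree of freedom), the highest value being for knockdown replicates 1 and 2. Knockdown replicate 2 stood apart by transcript length: relative to the mean of all 9 libraries its genes with a longest transcript of up to 2353 bases had a median log2 value of 0.17, and those over 5366.5 bases one of -0.16, whereas every other library lay between -0.07 and 0.06 in both classes.

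In knockdown cells 13 of the 42 members fell and 3 rose. The members that fell were the transcription factors IRF1 and IRF7, the RNA-binding IFIT1 and IFIT2, the oligoadenylate synthetase family members OAS1, OAS3 and OASL, the GTPase GBP1, ISG15, the ligase HERC6, SAMD9, XAF1 and IFI44, by 0.21 to 0.67 on the log2 scale. BST2, GBP3 and TRIM22 rose, by 0.17, 0.31 and 0.53. The 16 called members were 38.1% of the list, where 30.1% of all genes tested were called. By direction, 15.3% of all genes fell and 14.7% rose. The median log2 fold change of the list was -0.12, against 0.00 over all genes tested, and 29 members lay below 0. The libraries of the groups did not overlap for 24 members, where 42% of all genes did not overlap. The share of member calls that were rises was 18.8% and became 33.3%, with 12 falls and 6 rises, under scaling by library totals alone or by upper-quartile factors. Over all genes tested that share moved from 49.0% to 59.8% and 58.7%. The count of rises was 1 without control replicate 2 or control replicate 3 and 8 without knockdown replicate 1. In those runs 21.6%, 21.4% and 33.4% of all genes were called.

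With PRGL493 8 members fell and 7 rose. OASL, USP18, IFIT1, ISG15, IRF1, XAF1, HERC5 and MX1 fell, OASL the furthest at 1.03 on the log2 scale. B2M and TAP1 of the antigen presentation pathway, the immunoproteasome subunit PSMB9, the transcription factors STAT2 and IRF7, the membrane protein IFITM3 and IFI27 rose by 0.27 to 0.39. The 15 called members were 35.7% of the list, below the 41.8% of all genes that were called, and by direction 20.4% of all genes fell and 21.4% rose. The median over members was -0.03 and that over all genes 0.01. The libraries did not overlap for 26 members, where 57.2% of all genes did not overlap. The count of rises was 4 without control replicate 2, where 33.6% of all genes were called. It was 15, beside 9 falls, with a length and GC trend removed, where 50.3% of all genes were called. Without knockdown replicate 2 it was 12, where 49.9% of all genes were called. That library enters this contrast only through the filter, the scaling and the shared estimate of the spread.

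Both treatments were compared with the same 3 control libraries, so their fold changes are not independent of each other. Side by side, 5 members fell in both (IRF1, IFIT1, OASL, ISG15 and XAF1), where 5.43% of all genes did, and 0 rose in both, where 5.11% did. IRF7 fell in the knockdown and rose with PRGL493, as did 2.60% of all genes. A further 10 members were called in the knockdown only and 9 with PRGL493 only, which does not show by itself that the treatments differ for them. The other 17 were called in neither: IRF9, DDX58, IFIH1, DHX58, IFIT3, IFIT5, OAS2, MX2, IFITM1, IFITM2, GBP2, SAMD9L, PARP9, PARP14, IFI6, IFI44L and PSMB8. In bulk RNA, fewer cells expressing a gene and less RNA per cell cannot be told apart, for these and all later values.

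**Figure D1:**
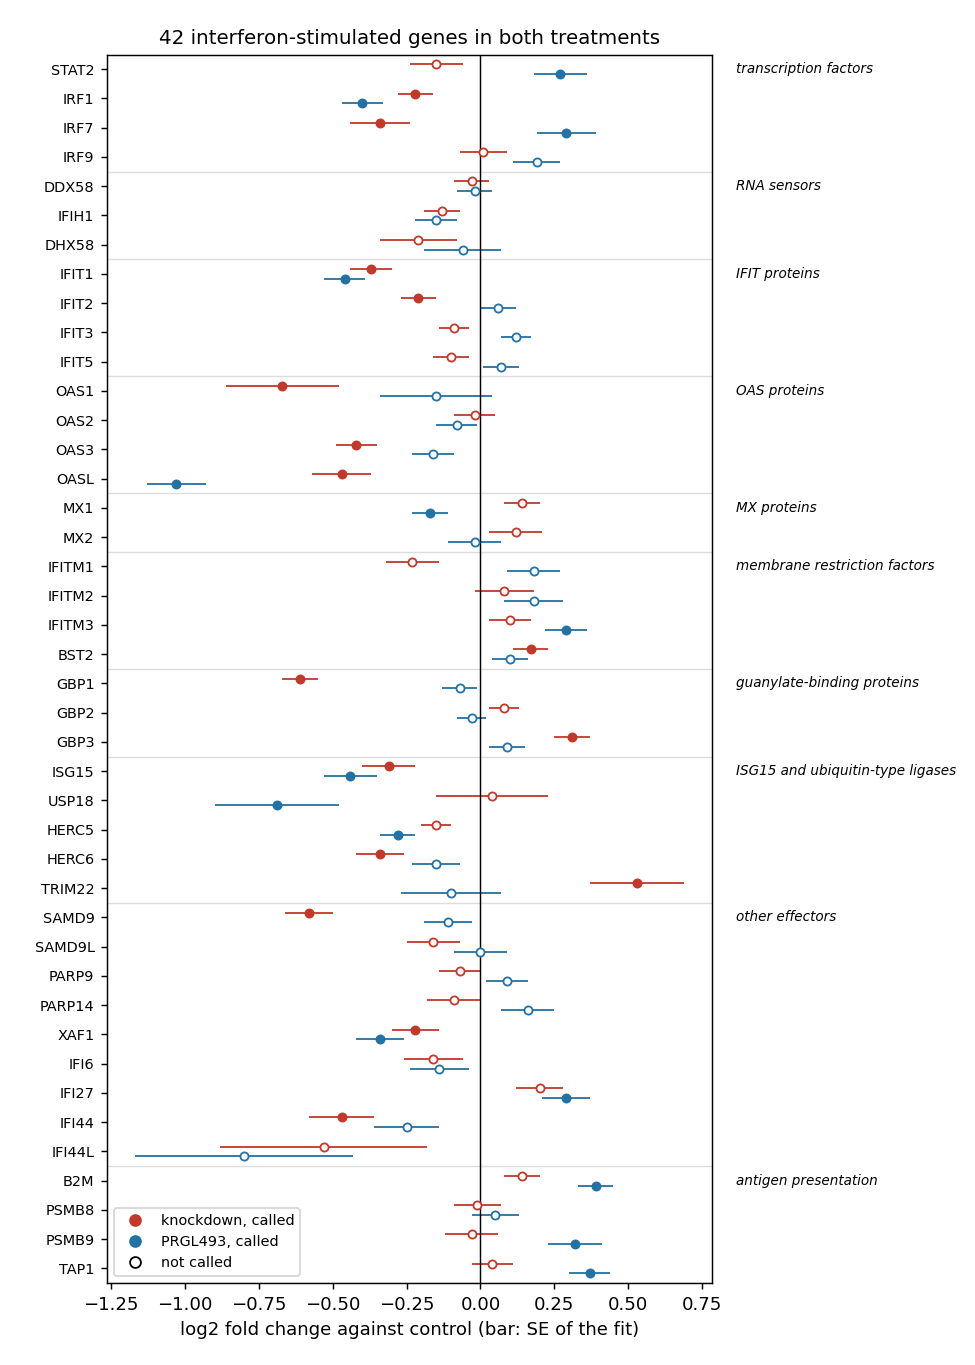
Log2 fold change of each of the 42 members against control (x axis) in ACSL4 knockdown (red) and with PRGL493 (blue), grouped by role, with bars of 1 SE from the fit across all genes and filled points for members called at an adjusted p below 0.05. OASL with PRGL493 lies furthest left at -1.03, and the antigen presentation members B2M, PSMB9 and TAP1 are filled and to the right of 0 with PRGL493, and open in the knockdown.

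Among the transcription factors, IRF1, an activator induced by interferon gamma that also sustains basal expression of many of these genes, stood at 77.7, 79.0 and 72.5 CPM in the control libraries. It stood at 59.7, 71.0 and 65.7 CPM in the knockdown and at 59.2, 55.7 and 58.4 with PRGL493. All 6 treated libraries lay below the lowest control library, and knockdown replicate 2 came closest to it. The log2 fold change was -0.22 in the knockdown (SE 0.06, adjusted p = 0.015) and -0.40 with PRGL493 (SE 0.07, adjusted p = 0.00012). The knockdown call was lost without control replicate 1 (adjusted p = 0.061) or control replicate 2 (adjusted p = 0.076), and once the trend by length and GC was taken out (-0.16, adjusted p = 0.092). The call with PRGL493 held in every alternative run. IRF1 shares 22% of its exonic bases with C5orf56 on the opposite strand, and whether counting used the strand is not given in the sources used here.

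IRF7, the factor that amplifies type I interferon transcription, stood at 13.8, 13.0 and 13.0 CPM in control. Its knockdown libraries stood at 9.35, 12.3 and 9.95 CPM and its PRGL493 libraries at 17, 16.5 and 15.2. The 3 groups did not overlap, with the knockdown lowest and PRGL493 highest. Its log2 fold change was -0.34 in the knockdown (SE 0.10, adjusted p = 0.014) and 0.29 with PRGL493 (SE 0.10, adjusted p = 0.021). The direct difference between knockdown and PRGL493 was -0.63 (SE 0.10, adjusted p = 4e-05) and held in every alternative run. Against control each call was lost without some libraries: in the knockdown without control replicate 1 (adjusted p = 0.061) or knockdown replicate 3 (0.064), and with PRGL493 without PRGL493 replicate 1 (0.098) or 2 (0.069) or control replicate 2 (0.069) or 3 (0.071).

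STAT2, a transcription factor of the type I response, stood at 69.6, 61.7 and 62.2 CPM in control, at 64.4, 51.3 and 59.1 in the knockdown and at 75.2, 86.5 and 71.3 with PRGL493. All 3 PRGL493 libraries lay above all 6 others. It rose with PRGL493 by 0.27 (SE 0.09, adjusted p = 0.023), a call lost without PRGL493 replicate 2 (log2 fold change 0.18, adjusted p = 0.13), control replicate 2 (0.24, adjusted p = 0.087) or control replicate 3 (0.24, adjusted p = 0.085). Its log2 fold change in the knockdown was -0.15 (adjusted p = 0.23), and knockdown and PRGL493 differed by -0.41 (SE 0.09, adjusted p = 0.0011). IRF9, the DNA-binding subunit of the same complex, gave 0.01 in the knockdown (adjusted p = 0.92) and 0.19 with PRGL493 (adjusted p = 0.057). IRF9 shares 48.4% of its exonic bases with AL136295.5 on the same strand, which makes its count uncertain.

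None of the cytoplasmic RNA sensors was called in either treatment, although IFIH1 was called lower in some alternatives. DDX58, which encodes RIG-I and recognises RNA with a triphosphate end, gave log2 fold changes of -0.03 in the knockdown (adjusted p = 0.76) and -0.02 with PRGL493 (adjusted p = 0.79), and its library values ran from 42.3 to 46.7 CPM over all 9 libraries. IFIH1, which encodes the long double-stranded RNA sensor MDA5, gave -0.13 (adjusted p = 0.13) and -0.15 (adjusted p = 0.073). All 6 treated libraries of IFIH1, at 25.6 to 29.5 CPM, lay below the 3 control libraries at 30.0 to 30.9. IFIH1 was called lower in 1 of 19 alternatives in the knockdown (trend removed, adjusted p = 0.038) and in 5 of 19 with PRGL493 (adjusted p = 0.019 to 0.043), among them without knockdown replicate 1 (0.042) or 2 (0.043). DHX58, which encodes the regulator LGP2, gave -0.21 (adjusted p = 0.23) and -0.06 (adjusted p = 0.75) at a level of 4.43 to 5.98 CPM.

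The IFIT genes lie next to each other on chromosome 10 and encode antiviral proteins, of which IFIT1 binds viral RNA lacking the host's cap methylation. IFIT1 (chr10:89392546-89406486), whose promoter above carries 2 ISRE-type matches, stood at 31.5, 34.3 and 34.9 CPM in control. It stood at 25.2, 26.2 and 26.3 CPM in the knockdown and at 24.3, 23.1 and 25.7 with PRGL493. The control libraries lay above all 6 treated libraries, and the treated groups overlapped. IFIT1 fell 1.29-fold in the knockdown (log2 fold change -0.37, SE 0.07, adjusted p = 0.00046), and by 0.46 on the log2 scale with PRGL493 (SE 0.07, adjusted p = 3.8e-05). Both calls held in every alternative run, and the direct difference between the treatments was 0.09 (SE 0.07, adjusted p = 0.28).

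Its neighbours did not move alike. IFIT2 stood at 35.1, 36.2 and 37.7 CPM in control, at 32.0, 31.4 and 31.0 in the knockdown and at 38.1, 37.6 and 37.8 with PRGL493. The knockdown libraries lay below both other groups. IFIT2 fell in the knockdown by 0.21 (SE 0.06, adjusted p = 0.012; without control replicate 3, adjusted p = 0.062) and gave 0.06 with PRGL493 (adjusted p = 0.44). IFIT3 gave -0.09 (adjusted p = 0.23) and 0.12 (adjusted p = 0.094), and IFIT5 -0.10 (adjusted p = 0.21) and 0.07 (adjusted p = 0.35). In the direct comparison of knockdown with PRGL493, IFIT2 (-0.27, adjusted p = 0.00098), IFIT3 (-0.20, adjusted p = 0.0044) and IFIT5 (-0.17, adjusted p = 0.021) were lower in the knockdown. The call of IFIT5 was lost without PRGL493 replicate 2 (adjusted p = 0.058) or 3 (adjusted p = 0.12), and with upper-quartile factors (-0.12, adjusted p = 0.1).

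The OAS enzymes make 2-5A, a short adenylate chain that activates RNase L, and OASL is a family member without that activity that enhances RIG-I signalling. OASL (chr12:121019111-121039242) stood at 14.4, 14.2 and 15 CPM in control. It stood at 8.98, 12.1 and 10.4 CPM in the knockdown and at 7.29, 7.20 and 6.81 with PRGL493. The 3 groups did not overlap, with PRGL493 lowest and the control highest. OASL fell by 0.47 in the knockdown (SE 0.10, adjusted p = 0.0017) and by 1.03 with PRGL493 (SE 0.10, adjusted p = 7.1e-07), a 2.04-fold lower level and the largest fitted change of any called member in either treatment. The treatments differed by 0.56 (SE 0.10, adjusted p = 0.00027). These 3 calls held in every alternative run.

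OAS3, the longest of the enzymes, stood at 27.1, 28.4 and 27.7 CPM in control, at 20.2, 19.3 and 22.7 in the knockdown and at 24.5, 26.1 and 23.7 with PRGL493. The 3 groups did not overlap, the knockdown being lowest. OAS3 fell in the knockdown by 0.42 (SE 0.07, adjusted p = 0.00039), and gave -0.16 with PRGL493 (SE 0.07, adjusted p = 0.08). OAS1 stood on few reads, with 69, 87 and 93 counts in control, 57, 76 and 66 in the deeper knockdown libraries, and 94, 79 and 69 with PRGL493. Scaled, these were 2.26, 2.82 and 2.84 CPM in control, 1.30, 2.00 and 1.69 in the knockdown and 2.29, 2.76 and 2.14 with PRGL493. The knockdown libraries lay below all 6 others. OAS1 fell in the knockdown by 0.67 (SE 0.19, adjusted p = 0.013), a call lost without control replicate 2 (adjusted p = 0.052) or 3 (adjusted p = 0.055), and gave -0.15 with PRGL493 (adjusted p = 0.55). OAS2, which lies beside OAS3 on chromosome 12, gave -0.02 (adjusted p = 0.84) and -0.08 (adjusted p = 0.39).

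**Figure D2:**
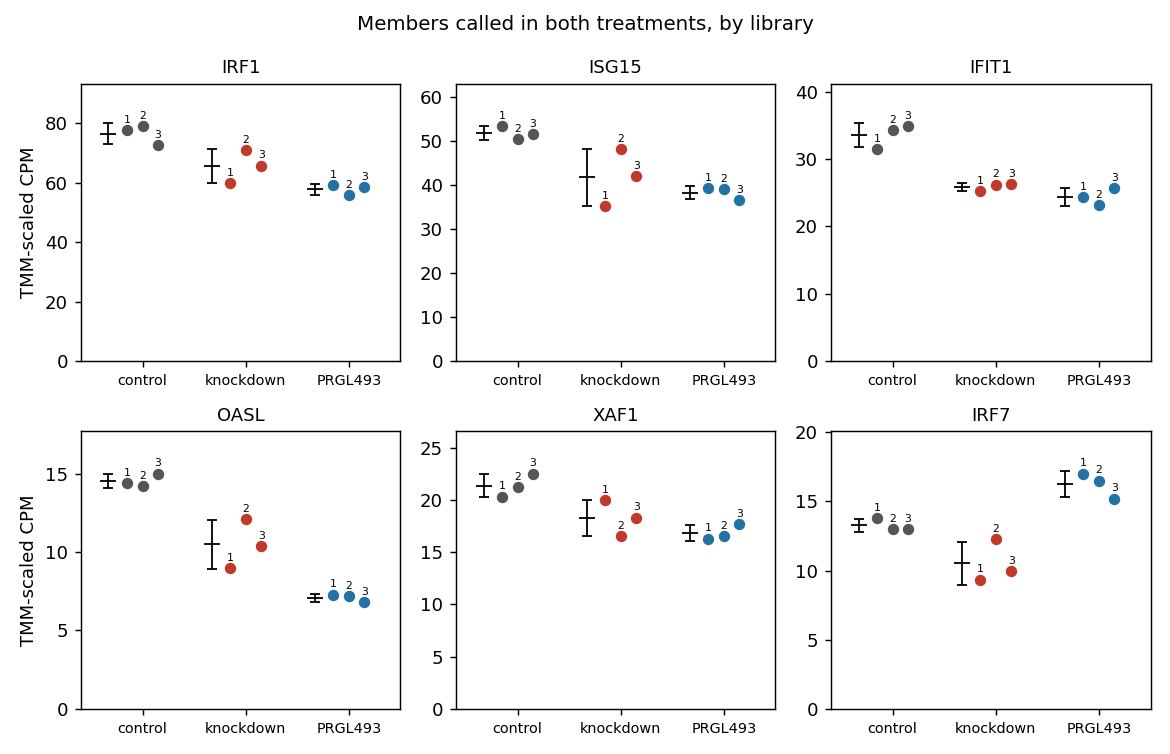
TMM-scaled CPM (y axis, from 0) of the 6 members called in both treatments, in each control, knockdown and PRGL493 library (points numbered by replicate, with mean and SD as black bars to their left). IRF1, ISG15, IFIT1, OASL and XAF1 lie lower in both treatments, and IRF7 is below control in the knockdown and above it with PRGL493.

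The MX genes encode dynamin-like GTPases that trap viral nucleocapsids. MX1 stood at 38.0, 38.0 and 37.7 CPM in control, at 39.1, 44.1 and 42.5 in the knockdown and at 32.6, 34.7 and 33.9 with PRGL493. The 3 groups did not overlap, the knockdown being highest and PRGL493 lowest. Against control its log2 fold change was 0.14 in the knockdown (adjusted p = 0.084), and it fell with PRGL493 by 0.17 (SE 0.06, adjusted p = 0.036). The call with PRGL493 was lost in 7 of 19 alternatives, among them without any of the control replicates (adjusted p = 0.09, 0.093 and 0.079), without PRGL493 replicate 1 (0.13) or 3 (0.056), and in a fit with the replicate number as a block (0.052). The direct difference between knockdown and PRGL493 was 0.31 (SE 0.06, adjusted p = 0.00043) and held in every alternative run. MX2 gave 0.12 (adjusted p = 0.33) and -0.02 (adjusted p = 0.85).

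The membrane restriction factors include the IFITM proteins, which hinder fusion of viruses with endosomes, and BST2 (tetherin), which holds budding particles at the cell surface. IFITM3 stood at 133, 135 and 142 CPM in control, at 127, 161 and 151 in the knockdown and at 178, 158 and 166 with PRGL493. Its PRGL493 libraries lay above the control libraries, and its knockdown libraries spread across both. IFITM3 rose with PRGL493 by 0.29 (SE 0.07, adjusted p = 0.0048), which held in every alternative run, and gave 0.10 in the knockdown (adjusted p = 0.34). IFITM1 gave -0.23 in the knockdown (SE 0.09, adjusted p = 0.055) and 0.18 with PRGL493 (adjusted p = 0.097), and knockdown and PRGL493 differed by -0.41 (SE 0.09, adjusted p = 0.00075). IFITM2 gave 0.08 (adjusted p = 0.58) and 0.18 (adjusted p = 0.14).

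The 3 IFITM genes are near-identical neighbours on chromosome 11, and their counts were fractional in all 9 libraries while their sum was whole in all 9 (within 0.01). Reads were thus shared out between them by the authors' counting, and the split is uncertain. Their summed level ran from 187 to 199 CPM in control, from 172 to 222 in the knockdown and from 219 to 244 with PRGL493, so that PRGL493 lay above control for the family as a whole. IFITM1 and IFITM2 share 351 exonic bases on the same strand, 32.5% and 22.7% of their exonic bases. IFITM3 shares 21.3% of its exonic bases with AC136475.5 on the opposite strand. BST2 stood at 195, 186 and 179 CPM in control, at 195, 230 and 205 in the knockdown and at 203, 190.1 and 208 with PRGL493. The lowest knockdown library lay barely above the highest control library. BST2 rose in the knockdown by 0.17 (SE 0.06, adjusted p = 0.041), a call lost in 9 of 19 alternatives, among them without knockdown replicate 2 (0.10, adjusted p = 0.12) or 3 (adjusted p = 0.066), any control replicate (adjusted p = 0.052 to 0.16) or PRGL493 replicate 1 (adjusted p = 0.056). With PRGL493 it gave 0.10 (adjusted p = 0.19).

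The guanylate-binding proteins are large GTPases that coat intracellular bacteria and vacuoles, and their genes form a cluster on chromosome 1. GBP1 (chr1:89052319-89065360) stood at 54.5, 48.8 and 54.8 CPM in control. It stood at 35.3, 34.5 and 33.5 CPM in the knockdown and at 49.1, 49.2 and 52.3 with PRGL493. The knockdown libraries lay far below the other 6, which overlapped. GBP1 fell in the knockdown by 0.61 (SE 0.06, adjusted p = 1.3e-06), a 1.53-fold lower level, and gave -0.07 with PRGL493 (adjusted p = 0.38). The call in the knockdown held in every alternative run, and knockdown and PRGL493 differed by -0.54 (SE 0.06, adjusted p = 2.1e-06).

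GBP3 (chr1:89006666-89022894) went the other way. It stood at 71.2, 76.3 and 80.0 CPM in control, at 98.8, 92.0 and 91.9 in the knockdown and at 81.0, 75 and 86.7 with PRGL493. The knockdown libraries were the highest of the 9. GBP3 rose in the knockdown by 0.31 (SE 0.06, adjusted p = 0.0014), which held in every alternative run, and gave 0.09 with PRGL493 (adjusted p = 0.26). GBP1 and GBP3 shared reads in at least 1 library, knockdown replicate 1, where both counts were fractional and their sum was whole. In every other library the counts of both genes were whole. Their summed level was 126, 125 and 135 CPM in control, 134, 126 and 125 in the knockdown and 130, 124 and 139 with PRGL493. Summed, the 3 groups overlapped, and how far the opposite changes depend on the assignment of reads between the genes was not tested. GBP2 (chr1:89106132-89150456), the most abundant of the family, gave 0.08 (adjusted p = 0.22) and -0.03 (adjusted p = 0.65).

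**Figure D3:**
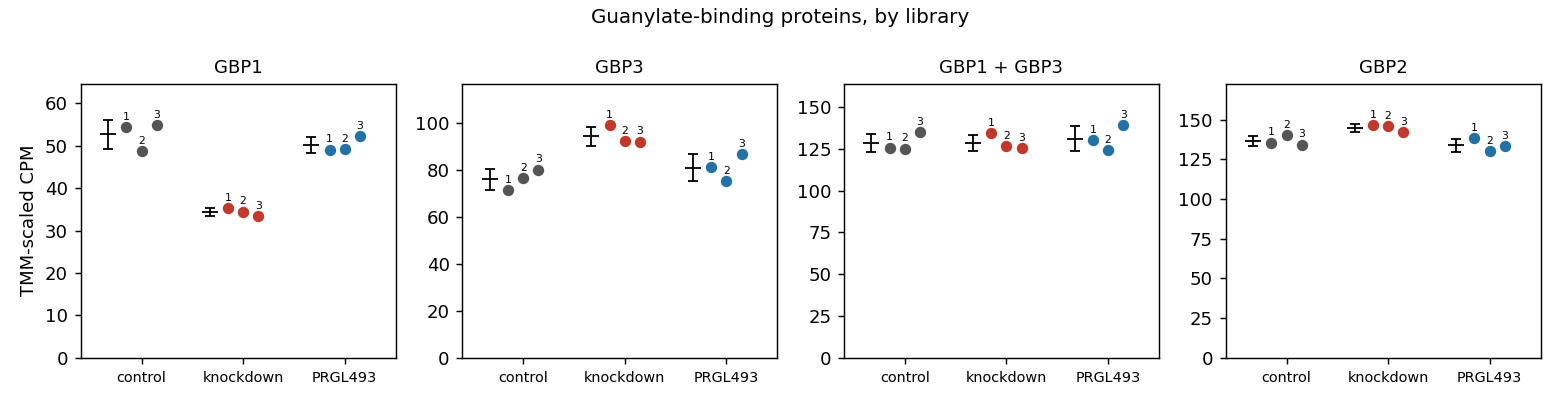
TMM-scaled CPM (y axes, from 0) of GBP1, GBP3, their sum and GBP2 in each library (points numbered by replicate; black bars are mean and SD). GBP1 is lowest and GBP3 highest in the 3 knockdown libraries, while their sum lies between 124 and 139 CPM in all 9.

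ISG15 is a ubiquitin-like protein that HERC5 attaches to newly made proteins and USP18 removes. ISG15 stood at 53.4, 50.4 and 51.5 CPM in control, at 35.2, 48.1 and 42 in the knockdown and at 39.2, 39.0 and 36.5 with PRGL493. All 6 treated libraries lay below the control libraries, with knockdown replicate 2 nearest to them. ISG15 fell in the knockdown by 0.31 (SE 0.09, adjusted p = 0.013; without control replicate 1, adjusted p = 0.055). With PRGL493 it fell by 0.44 (SE 0.09, adjusted p = 0.00088), which held in every alternative run, and the direct difference between the treatments was 0.12 (SE 0.09, adjusted p = 0.25). Without knockdown replicate 2 the change in the knockdown was -0.42.

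HERC5, the ligase, stood at 44.3, 42.5 and 44.4 CPM in control, at 40.3, 39.2 and 39.1 in the knockdown and at 35.9, 35.6 and 36.2 with PRGL493. The 3 groups did not overlap, and PRGL493 was lowest. HERC5 fell with PRGL493 by 0.28 (SE 0.06, adjusted p = 0.00058) and gave -0.15 in the knockdown (SE 0.05, adjusted p = 0.054). Its relative HERC6 fell in the knockdown by 0.34 (SE 0.08, adjusted p = 0.0032), from 15 ± 0.511 to 11.8 ± 0.702 CPM (mean ± SD, n = 3), and gave -0.15 with PRGL493 (adjusted p = 0.13). The calls of HERC5 with PRGL493 and HERC6 in the knockdown held in every alternative run.

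USP18, which besides removing ISG15 also damps signalling at the type I receptor, stood on few reads, with 64, 76 and 56 counts in control, 88, 90 and 80 in the knockdown and 42, 42 and 46 with PRGL493. Scaled, these were 2.10, 2.47 and 1.71 CPM in control, 2.01, 2.37 and 2.05 in the knockdown and 1.02, 1.47 and 1.42 with PRGL493. The PRGL493 libraries lay below all 6 others. USP18 fell with PRGL493 by 0.69 (SE 0.21, adjusted p = 0.013), a call lost without control replicate 2 (-0.56, adjusted p = 0.071) or PRGL493 replicate 1 (-0.54, adjusted p = 0.074), and gave 0.04 in the knockdown (adjusted p = 0.91). TRIM22, a ubiquitin ligase that restricts retroviral transcription, stood at 3.24, 2.72 and 3.18 CPM in control, at 4.70, 3.29 and 5.18 in the knockdown and at 2.58, 3.15 and 2.85 with PRGL493. Knockdown replicate 2 lay just above the highest control library, and the other knockdown libraries well above it. TRIM22 rose in the knockdown by 0.53 (SE 0.16, adjusted p = 0.022), a call lost without control replicate 2 (adjusted p = 0.096), control replicate 3 (adjusted p = 0.05) or knockdown replicate 3 (adjusted p = 0.12). It gave -0.10 with PRGL493 (adjusted p = 0.68).

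Among the other effectors, SAMD9, a cytoplasmic restriction factor of poxviruses, stood at 55.1, 64.6 and 62.6 CPM in control. It stood at 45.1, 36.0 and 40.8 CPM in the knockdown and at 56.3, 55.4 and 57.6 with PRGL493. The knockdown libraries lay below all 6 others. SAMD9 fell in the knockdown by 0.58 (SE 0.08, adjusted p = 3.4e-05), which held in every alternative run, and gave -0.11 with PRGL493 (adjusted p = 0.28). SAMD9 is one of the long transcripts that were lowest in knockdown replicate 2, and without that library the change was -0.50. Its paralogue SAMD9L, the adjacent gene on chromosome 7, gave -0.16 (adjusted p = 0.17) and 0.00 (adjusted p = 0.98).

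IFI44 stood at 11.9, 12.0 and 14.3 CPM in control, at 8.78, 9.91 and 9.03 in the knockdown and at 8.83, 12.0 and 11.6 with PRGL493. The knockdown libraries lay below the control libraries, and the PRGL493 libraries reached into both. IFI44 fell in the knockdown by 0.47 (SE 0.11, adjusted p = 0.0049) and gave -0.25 with PRGL493 (adjusted p = 0.084). XAF1, an antagonist of the apoptosis inhibitor XIAP, stood at 20.3, 21.2 and 22.5 CPM in control, at 20, 16.5 and 18.3 in the knockdown and at 16.3, 16.5 and 17.7 with PRGL493. Knockdown replicate 1 lay close under the lowest control library. XAF1 fell with PRGL493 by 0.34 (SE 0.08, adjusted p = 0.0026), which held in every alternative run. Its fall of 0.22 in the knockdown (SE 0.08, adjusted p = 0.041) was lost in 11 of 19 alternatives, among them without knockdown replicate 2 (-0.16, adjusted p = 0.12) or 3 (adjusted p = 0.095), PRGL493 replicate 1 (0.056) or 2 (0.058), or any control replicate (adjusted p = 0.053 to 0.17). XAF1 shares 38.3% of its exonic bases with PRAL on the opposite strand, which leaves its count uncertain.

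IFI27, a mitochondrial protein strongly induced by type I interferon in many tissues, stood at 88.0, 95.9 and 97.9 CPM in control, at 93.6, 120 and 109 in the knockdown and at 120, 108 and 117 with PRGL493. The PRGL493 libraries lay above the control libraries. IFI27 rose with PRGL493 by 0.29 (SE 0.08, adjusted p = 0.0069), and gave 0.20 in the knockdown (adjusted p = 0.069). IFI6 gave -0.16 (adjusted p = 0.22) and -0.14 (adjusted p = 0.27). PARP9 gave -0.07 (adjusted p = 0.47) and 0.09 (adjusted p = 0.32), and PARP14, like it an ADP-ribosyltransferase family member, gave -0.09 (adjusted p = 0.48) and 0.16 (adjusted p = 0.16). IFI44L was the lowest member, between 0.175 and 1.07 CPM, and its values of -0.53 (SE 0.35, adjusted p = 0.27) and -0.80 (SE 0.37, adjusted p = 0.089) had the widest errors of the list.

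With PRGL493, 3 of the 4 antigen presentation members rose, where 21.4% of all genes rose, and 0 of 4 were called in the knockdown, where 30.1% of all genes were. B2M (chr15:44711487-44718877), the light chain of every MHC class I molecule, stood at 1216, 1253 and 1201 CPM in control. It stood at 1289, 1483 and 1286 CPM in the knockdown and at 1600, 1571 and 1644 with PRGL493. The PRGL493 libraries lay above all others, and knockdown replicate 2 lay above the other 2 knockdown libraries. B2M rose with PRGL493 by 0.39 (SE 0.06, adjusted p = 3.2e-05), and gave 0.14 in the knockdown (SE 0.06, adjusted p = 0.058). Its knockdown libraries all lay above the control libraries, and it was called higher there in 4 of 19 alternatives (adjusted p = 0.015 to 0.048). The direct difference between knockdown and PRGL493 was -0.25 (SE 0.06, adjusted p = 0.0014).

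TAP1 and PSMB9 are divergent neighbours in the MHC on chromosome 6, encoding a subunit of the peptide transporter and a catalytic subunit of the immunoproteasome. TAP1 (chr6:32845209-32853978) stood at 129.7, 138 and 124 CPM in control, at 123, 149.6 and 131 in the knockdown and at 173, 166 and 166 with PRGL493. The PRGL493 libraries lay above all 6 others. TAP1 rose with PRGL493 by 0.37 (SE 0.07, adjusted p = 0.00027), and gave 0.04 in the knockdown (adjusted p = 0.66). PSMB9 stood at 29.4, 23.2 and 27.2 CPM in control, at 23.3, 30.0 and 25.2 in the knockdown and at 33.3, 33.3 and 33 with PRGL493. The PRGL493 libraries were again the highest. PSMB9 rose with PRGL493 by 0.32 (SE 0.09, adjusted p = 0.012; without control replicate 2, 0.23 and adjusted p = 0.075), and gave -0.03 in the knockdown (adjusted p = 0.87). PSMB8, another immunoproteasome subunit from the same cluster, gave -0.01 (adjusted p = 0.93) and 0.05 (adjusted p = 0.67). The calls of B2M and TAP1 with PRGL493 held in every alternative run. PSMB8 and TAP1 share 20.6% and 9.5% of their exonic bases with PSMB8-AS1 on the opposite strand, and TAP1 counts were fractional in all 9 libraries, so both are uncertain to that extent.

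**Figure D4:**
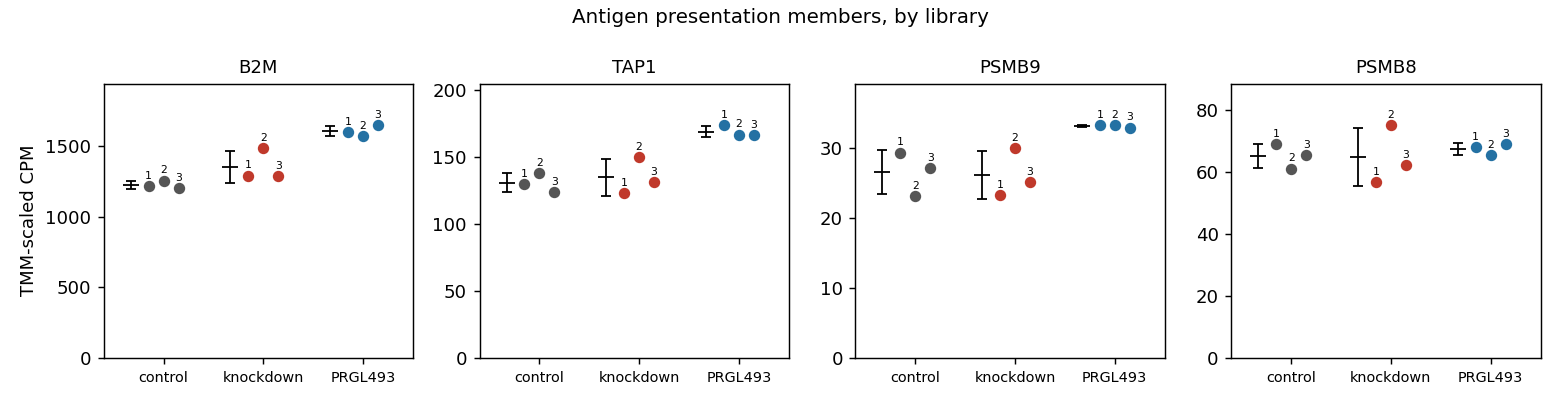
TMM-scaled CPM (y axes, from 0) of B2M, TAP1, PSMB9 and PSMB8 in each library (points numbered by replicate; black bars are mean and SD). B2M, TAP1 and PSMB9 are highest in the 3 PRGL493 libraries, PSMB8 is not, and knockdown replicate 2 is the highest knockdown library for all of them.

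Compared directly, which uses no control library in the fold change, knockdown and PRGL493 differed for 22 of 42 members (52.4%), where 50.4% of all genes differed. Of these, 15 were lower in the knockdown and 7 higher, against 26.0% and 24.4% of all genes. The median over members was -0.13, against -0.01 over all genes. The members lower in the knockdown than with PRGL493 were STAT2, IRF7, IFIT2, IFIT3, IFIT5, OAS1, OAS3, IFITM1, IFITM3, GBP1, SAMD9, PARP14, B2M, PSMB9 and TAP1. Those higher were IRF1, OASL, MX1, GBP3, USP18, HERC5 and TRIM22. The libraries did not overlap for 24 members, where 56.0% of all genes did not overlap. Of the 22 calls, 14 held in every alternative run. Those of GBP3, HERC5, IFIT5, IFITM3, IRF1, OAS1, OAS3 and PARP14 did not, and that of HERC5 was lost in 12 of 19. Without PRGL493 replicate 2 the count of members higher in the knockdown was 4, where 41.3% of all genes were called.

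Per length, the members spanned a wide range of levels in the control cells. Divided by the length of the principal transcript, B2M stood at 717.6 CPM per kilobase, BST2 at 183, IFITM3 at 169 and IFI27 at 129.5, followed by ISG15 at 72.8 and GBP2 at 61.6. At the low end OAS1 stood at 1.57 CPM per kilobase, TRIM22 at 1.02, USP18 at 0.982 and IFI44L at 0.148. The members together took 0.302% to 0.305% of each control library's counts, 0.308% to 0.337% in the knockdown and 0.345% to 0.358% with PRGL493. B2M was the largest single contributor to these sums, so they do not describe the typical member.

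Transcript length separated the members within the knockdown group. For 10 of the 10 members with a longest annotated transcript of up to 2353 bases, knockdown replicate 2 was the highest of the 3 knockdown libraries, and for 6 of the 6 over 5366.5 bases it was the lowest. Of the 26 in between it was the highest for 11 and the lowest for 5. Its log2 ratio to the mean of the other knockdown libraries was 0.32 for ISG15 and OASL, 0.42 for OAS1 and 0.34 for IRF7. It was -0.26 for SAMD9, -0.37 for PARP14 and -0.58 for TRIM22. Of the members named, OASL (3266 bases), OAS1 (2416) and TRIM22 (2989) lie between the length limits, and OAS1 and TRIM22 stood on few reads. Without knockdown replicate 2, 14 members fell in the knockdown and 2 rose, where 31.5% of all genes were called. ISG15 then gave -0.42, OASL -0.59, OAS1 -0.83, GBP1 -0.61 and TRIM22 0.69. IFITM1 (-0.35) and IFI6 (-0.25) were then called lower, and BST2 (0.10) and XAF1 (-0.16) were not called.

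**Figure D5:**
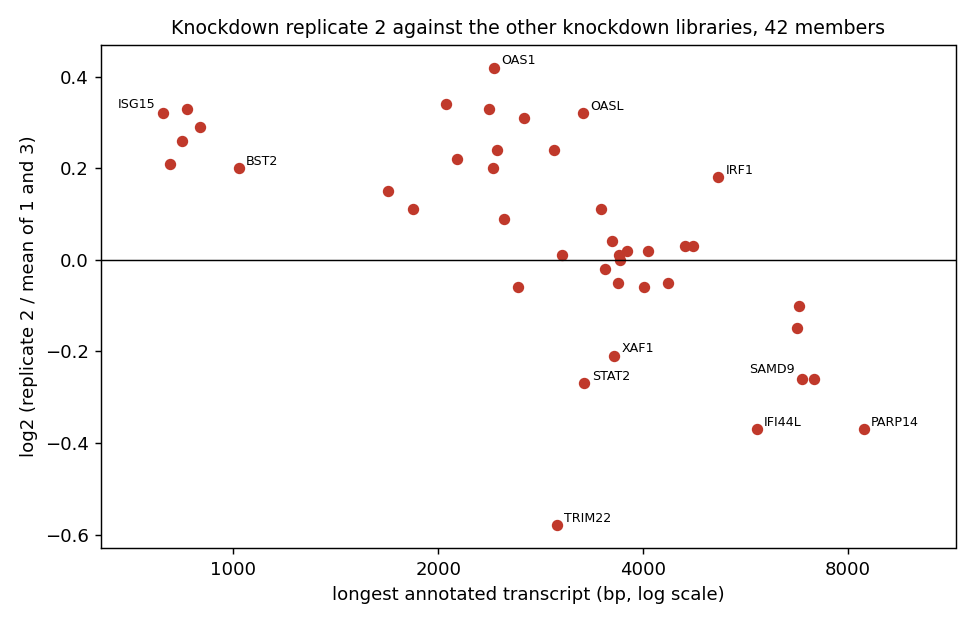
Log2 ratio of knockdown replicate 2 to the mean of knockdown replicates 1 and 3 (y axis) against the longest annotated transcript (x axis, bases, log scale) for the 42 members, with some members named. Short members such as ISG15 (0.32) lie above 0, and all members over 5366.5 bases lie below it.

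The rest of the interferon pathway was read from lists of its other genes. Of 21 interferon ligand genes, 19 were at 0 in every library, and the summed ligand counts were 0 to 2 per library. A count of 0 allows up to 3 counts, or 0.0684 to 0.105 CPM in these libraries, for counting error only. Ligand transcripts were therefore not detectable beyond isolated reads at this depth, in control or treated cells.

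Of the 6 receptor subunits tested, IFNLR1, the type III receptor chain, fell in the knockdown (-0.30, SE 0.09, adjusted p = 0.023), and the other 5 were not called. With PRGL493, IFNGR2 of the interferon gamma receptor fell (-0.23, SE 0.06, adjusted p = 0.0057) and IFNAR2 of the type I receptor rose (0.22, SE 0.07, adjusted p = 0.023). The calls were 16.7% of the receptor subunits in the knockdown and 33.3% with PRGL493, where 30.1% and 41.8% of all genes were called. Of 14 JAK-STAT and IRF signalling genes, 5 fell and 2 rose in the knockdown, and 2 fell and 6 rose with PRGL493. These calls were 50% and 57.1% of that list, beside the same shares of all genes. STAT3, a mediator of interleukin signalling, fell in the knockdown (-0.22, adjusted p = 0.0046) and rose with PRGL493 (0.15, adjusted p = 0.024). STAT5B fell in the knockdown (-0.33, adjusted p = 0.00074), and with PRGL493 STAT6 (0.24, adjusted p = 0.0016), TYK2 (0.30, adjusted p = 0.0028) and IRF2BP1 (0.33, adjusted p = 0.0015) rose.

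Of 20 genes of nucleic acid sensing, 6 fell and 3 rose in the knockdown, and 4 fell and 5 rose with PRGL493. In each treatment 45% of the list was called, where 30.1% and 41.8% of all genes were. MAVS, the mitochondrial adaptor on which RIG-I and MDA5 converge, stood at 133, 128.5 and 133 CPM in control, at 155, 133 and 163 in the knockdown and at 203, 209 and 222 with PRGL493. The PRGL493 libraries lay above all others. MAVS rose with PRGL493 by 0.68 (SE 0.07, adjusted p = 4.4e-07) and in the knockdown by 0.19 (SE 0.07, adjusted p = 0.035). TRIM25, the ligase that activates RIG-I, stood at 184, 180.4 and 186 CPM in control, at 223, 217 and 229.6 in the knockdown and at 127, 138 and 128 with PRGL493. Its groups did not overlap. TRIM25 rose in the knockdown by 0.28 (adjusted p = 0.00043) and fell with PRGL493 by 0.49 (adjusted p = 1e-06). The Toll-like receptor adaptor MYD88 rose with PRGL493 (0.48, adjusted p = 2.3e-06) and the DNA sensor IFI16 fell (-0.36, adjusted p = 2.1e-05). In the knockdown the helicase DDX3X (-0.33, adjusted p = 0.00031; with PRGL493 -0.20, adjusted p = 0.0095) and the adaptor TICAM1 (-0.25, adjusted p = 0.0051) fell, and the DNA sensor AIM2 rose (0.33, adjusted p = 0.012).

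Of 21 feedback regulators, 4 fell and 3 rose in the knockdown, and 7 fell and 5 rose with PRGL493. These calls were 33.3% and 57.1% of the list, where 30.1% and 41.8% of all genes were called. The phosphatase PTPN2, which removes activating phosphates from JAK and STAT proteins, fell in both (-0.22, adjusted p = 0.012, and -0.39, adjusted p = 9.1e-05). The SOCS inhibitors SOCS1 and SOCS2 rose in the knockdown, by 0.43 (adjusted p = 0.027) and 0.48 (adjusted p = 0.014), and fell with PRGL493, by 0.53 (adjusted p = 0.0087) and 0.72 (adjusted p = 0.001). Of the enzymes that charge ISG15, the activating UBA7 rose with PRGL493 (0.48, adjusted p = 2.2e-05) and fell in the knockdown (-0.20, adjusted p = 0.036), and the conjugating UBE2L6 rose in the knockdown (0.20, adjusted p = 0.02). PTPN1, another phosphatase of this pathway, rose with PRGL493 (0.24, adjusted p = 0.00063).

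Of 62 further interferon-stimulated genes tested, 9 fell and 7 rose in the knockdown, or 25.8% called, and 20 fell and 9 rose with PRGL493, or 46.8%. These shares stand beside 30.1% and 41.8% of all genes. DDX60, a helicase of the RIG-I pathway, fell in both, by 0.36 (adjusted p = 0.00018) and 0.39 (adjusted p = 4.7e-05). HELZ2 (-0.58, adjusted p = 1.4e-05) and NCOA7 (-0.46, adjusted p = 3.9e-05, with PRGL493 -0.18, adjusted p = 0.026) fell in the knockdown. IFITM10 rose there by 0.91 (adjusted p = 2.3e-06). It was listed as a relative of the IFITM genes above, and whether interferon induces it was not tested. With PRGL493 the mitochondrial RNA nuclease PNPT1 fell (-0.69, adjusted p = 6.2e-07), and the helicase MOV10 (0.56, adjusted p = 1.4e-06) and the butyrophilin BTN3A3 (0.53, adjusted p = 7.2e-06) rose.

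Of 18 other genes of MHC class I presentation, 2 fell and 1 rose in the knockdown, and 6 fell and 6 rose with PRGL493. These calls were 16.7% and 66.7% of the list, where 30.1% and 41.8% of all genes were called. TAP2, the partner of TAP1 in the transporter, stood at 142, 146 and 142 CPM in control, at 107, 104.5 and 108 in the knockdown and at 118, 117.5 and 112.5 with PRGL493. All 6 treated libraries lay below the control libraries. TAP2 fell by 0.42 in the knockdown (adjusted p = 5.8e-06) and by 0.30 with PRGL493 (adjusted p = 9.4e-05), where TAP1 rose. The peptide trimming enzyme ERAP1 fell in the knockdown (-0.37, adjusted p = 3.7e-05) and with PRGL493 (-0.23, adjusted p = 0.0013). The proteasome activator subunit PSME1 rose in the knockdown (0.22, adjusted p = 0.025) and was not called with PRGL493 (0.16, adjusted p = 0.066). With PRGL493 the loading chaperones CALR (-0.34, adjusted p = 0.00011) and PDIA3 (-0.26, adjusted p = 0.00038) fell and tapasin, TAPBP, rose (0.30, adjusted p = 0.00033). Of 14 constitutive proteasome subunits 1 fell, PSMB2 by 0.49 (adjusted p = 2.5e-05), and 2 rose in the knockdown. With PRGL493 3 fell and 0 rose, among them PSMB7 (-0.18, adjusted p = 0.016) and PSMA6 (-0.20, adjusted p = 0.021), which rose in the knockdown (0.18, adjusted p = 0.041). The calls were 21.4% of these subunits in each treatment, beside the same shares of all genes.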

How the data were processed

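The authors made expected counts per gene, not scaled for depth, with GRCh38 as the build (per the submitters' processing notes) and deposited them as 1 table for the 9 libraries. Of its values 10.5% were not whole, and they were rounded to whole numbers. The planned design had assumed whole counts, and its test was kept. For the aligner, the counter and the strand setting: not given in the sources used here. Of the rows 6932 were at 0. In 28 rows the symbol had become a date, and these held 0.236% to 0.258% of each library's counts and were not named.

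Genes were filtered with filterByExpr (14135 kept), scaled with TMM factors and tested with edgeR 4.0.16 (R 4.3.3, quasi-likelihood, robust) on all 9 libraries with a term for group alone (6 residual degrees of freedom), at a biological coefficient of variation of 6.38%. A gene was called at a Benjamini-Hochberg adjusted p below 0.05 over all genes tested, and every adjusted p given without an alternative comes from this test. Called members rise or fall in the text. Members with a called change of at least 0.4 on the log2 scale are given in every library, as are others chosen after their values were seen, and up to 4 called genes per pathway list and treatment with the smallest adjusted p are named. Some genes that this rule takes are not reported here. The members and lists were chosen with earlier results of these data known. Alternatives were DESeq2 1.42.0, limma 3.58.1 voom, other scalings and filters, rounding down, only the groups compared, a replicate block, each library left out, and, chosen after seeing the data, removal of a length and GC trend. Loci, overlaps and lengths came from GENCODE release 29, promoters from RefSeq. The test was also run on simulated counts, drawn with the same spread for every gene and no trend by length. That run therefore does not cover the length trend seen in these libraries.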

Additional observations from a re-analysis of the deposited data

How the results depend on the processing

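Over 19 alternatives, 8 of the 16 calls in knockdown against control, 10 of the 15 in PRGL493 against control and 14 of the 22 in knockdown against PRGL493 held in each. Of the members not called, 11 of 26, 12 of 27 and 12 of 20 were called in at least 1 alternative. In knockdown against control 3 members rose, and 6 did with upper-quartile factors or with library totals alone, the same 3 among them. In PRGL493 against control 7 rose, and 11 did with only the 2 groups compared, where 52.2% of all genes were called. Once a length and GC trend was removed 15 did, and both runs held the same 7. The share of calls that were rises then moved from 46.7% to 62.5% for members and from 51.3% to 60.1% over all genes. Leaving out each library in turn gave 1 to 8 rises and 9 to 14 falls in the knockdown, 4 to 12 rises and 6 to 11 falls with PRGL493, and 4 to 7 members higher and 11 to 18 lower in knockdown than with PRGL493. In these runs 21.4% to 33.4%, 33.1% to 49.9% and 41.3% to 51.1% of all genes were called, in the same order. With upper-quartile factors the share of calls higher in knockdown than with PRGL493 moved from 31.8% to 40.0% for members and from 48.4% to 58.4% over all genes. The median of all genes moved furthest there, from -0.01 to 0.05. With the trend removed, BST2 in knockdown against PRGL493 was called at -0.09 (SE 0.04, adjusted p = 0.039), where it had not been called at 0.07. The cause of these shifts was not tested.

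Replicate numbers were not taken to pair the libraries, since no label ties them and not every same-numbered pair correlated above 0.1: r was 0.06 to 0.15 between knockdown and control, where 6 of 6 libraries correlated best with their own number (a hint from the data, not the design), and -0.08 to -0.02 and -0.07 to -0.04 in the comparisons with PRGL493, where 0 of 6 did. The replicate block gave 13 falls and 2 rises in the knockdown, 7 and 7 with PRGL493, and 15 and 6 between the treatments. It left 27.4%, 39.9% and 48.5% of all genes called, in the same order. It ended the calls of XAF1 (adjusted p = 0.051) and BST2 (0.064) in the knockdown, MX1 with PRGL493 (0.052) and HERC5 between the treatments (0.077), and no other. With 3 libraries a group, members at few reads (OAS1, USP18, TRIM22, IFI44L) carry the widest errors, and smaller changes in them were not detectable at this depth.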
